A study of Mus musculus with 6 samples.

Results

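Genes of mitochondrial protein import and folding were compared between the muscle of 3 wild-type (WT) mice and 3 mice with a muscle-specific deletion of Tfeb (TFEB KO). The members are the genes that the array annotation names, alone on a probe set, as Timm or Tomm followed by a digit, together with Hspd1, Hspe1, Hspa9, Grpel1, Dnajc19, Samm50, Mtx1, Mtx2, Pmpca, Pmpcb, Immt, Trap1, Lonp1, Clpp, Phb and Phb2. Of the 12393 genes with a probe set of their own, 35 are members. Dnajc19 and Phb have no probe set of their own on this array and were not counted. All mice were C57BL/6 and 1 month old, and total RNA of muscle was hybridised to 1 Affymetrix array per mouse. WT mice are labelled wildtype and the others Tcfeb knockout, Tcfeb being the older name of Tfeb. The knockout came from floxed Tcfeb and a Cre transgene driven by MLC1f, a myosin light chain of muscle fibers, so that other cells of the tissue kept the gene. The sources used here do not name the muscle or the sex of the mice, nor say whether WT mice carried the floxed allele. Values are log2 RMA values, in which 1 unit is a doubling of the signal of a probe set, and a gene with several probe sets is read by the brightest of them.

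Nearly all mitochondrial proteins are encoded in the nucleus, made in the cytosol and imported unfolded. They enter through the TOM complex of the outer membrane, and are then passed to the SAM complex for outer membrane barrels, to small TIM chaperones in the intermembrane space, or to the TIM22 and TIM23 channels of the inner membrane. An ATP-driven motor built around mitochondrial HSP70 pulls precursors into the matrix, where a peptidase removes the targeting sequence, the HSP60 and HSP10 chaperonin folds the protein and the proteases LONP1 and CLPP remove what is damaged. Skeletal muscle fibers are rich in mitochondria and rely on this machinery, and Hspd1 and Hspe1 are also known targets of the heat shock factor HSF1.

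Tfeb itself stood at 8.61, 8.55 and 8.96 in WT mice against 7.10, 7.23 and 7.04 in TFEB KO mice. It fell without overlap, at a log2 fold change of -1.58 (limma, adjusted p = 0.00787).

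The import and folding genes differed little between the genotypes. Of the 35 members, 0 were lower and 0 were higher in TFEB KO muscle when limma's adjusted p had to be under 0.05. By that rule 0.702% of all genes were lower and 0.871% higher, 1.57% together. At an unadjusted p under 0.05, Mtx1, Immt, Samm50 and Clpp were lower and Hspe1 and Mtx2 were higher. These are 11.4% and 5.71% of the members, beside 8.66% and 8.49% of all genes. The methods' t-test with Benjamini-Hochberg adjustment also called 0 members, and without adjustment it gave 6 as lower and 3 as higher. The median log2 fold change of the members was -0.06 (quartiles -0.17 to 0.03), beside -0.01 over all genes (quartiles -0.13 to 0.11), and 23 of the 35, or 65.7%, lay below 0, as did 53.4% of all genes. The lowest value was -0.28 for Trap1 and the highest was 0.35 for Hspe1. On the brightest probe sets, the 95% intervals of all 35 members lay between -0.57 and 0.56. This is inside a change of 1.5-fold (0.585 on the log2 scale) in either direction. Some dimmer probe sets of members had intervals that went beyond 1.5-fold. They include a probe set of Immt (-0.77 to -0.21) and a probe set of Tomm7 (-0.08 to 0.93). None of these intervals is adjusted for the number of genes.

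**Figure D1:**
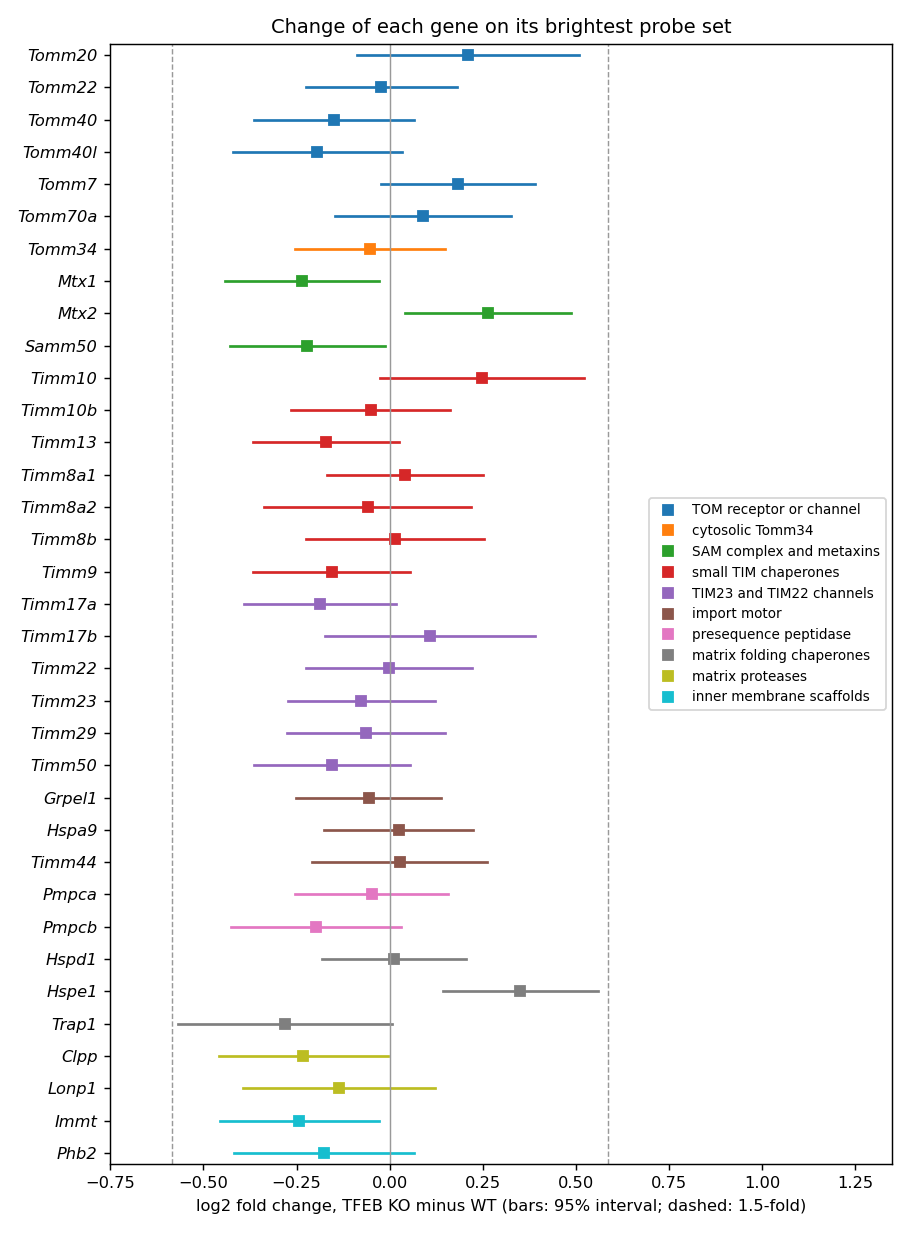
Log2 fold change of each member on its brightest probe set (horizontal axis, TFEB KO minus WT, n = 3 arrays each), colored by role. Bars are 95% intervals from limma, and dashed lines mark 1.5-fold. All 35 intervals stay between the dashed lines, and those of Mtx1, Samm50, Clpp, Immt, Mtx2 and Hspe1 leave out 0.

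Arrays of the groups did not overlap for 10 members that lay lower in TFEB KO muscle and for 4 that lay higher. The first count is 28.6% of the members and the second 11.4%, while 12.9% of all genes lay lower and 10.8% higher without overlap. The shares were 33.3% and 9.09% for complex I, 25.7% and 10.8% for mitochondrial ribosomal proteins, and 70.6% and 0% for the tricarboxylic acid cycle. The excess on the lower side was thus not particular to the members. The 10 lower members are Mtx1, Samm50, Timm13, Timm9, Timm17a, Timm50, Pmpcb, Trap1, Clpp and Immt. The 4 higher ones are Tomm7, Mtx2, Timm10 and Hspe1. The spread within a group was small, with an SD of 0.02 to 0.20 over WT arrays and 0.04 to 0.22 over TFEB KO arrays (n = 3 each). KO 1 was the lowest of the 6 arrays for 11 members and KO 3 for 9, while WT 2 was the highest for 11 and WT 1 for 8. All members but Timm8a2 lay above the median of all genes in brightness. The probe set of Timm8a2 read 2.82 to 3.18 over the 6 arrays, near the bottom of the array, so that its value (-0.06) says little about the gene.

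**Figure D2:**
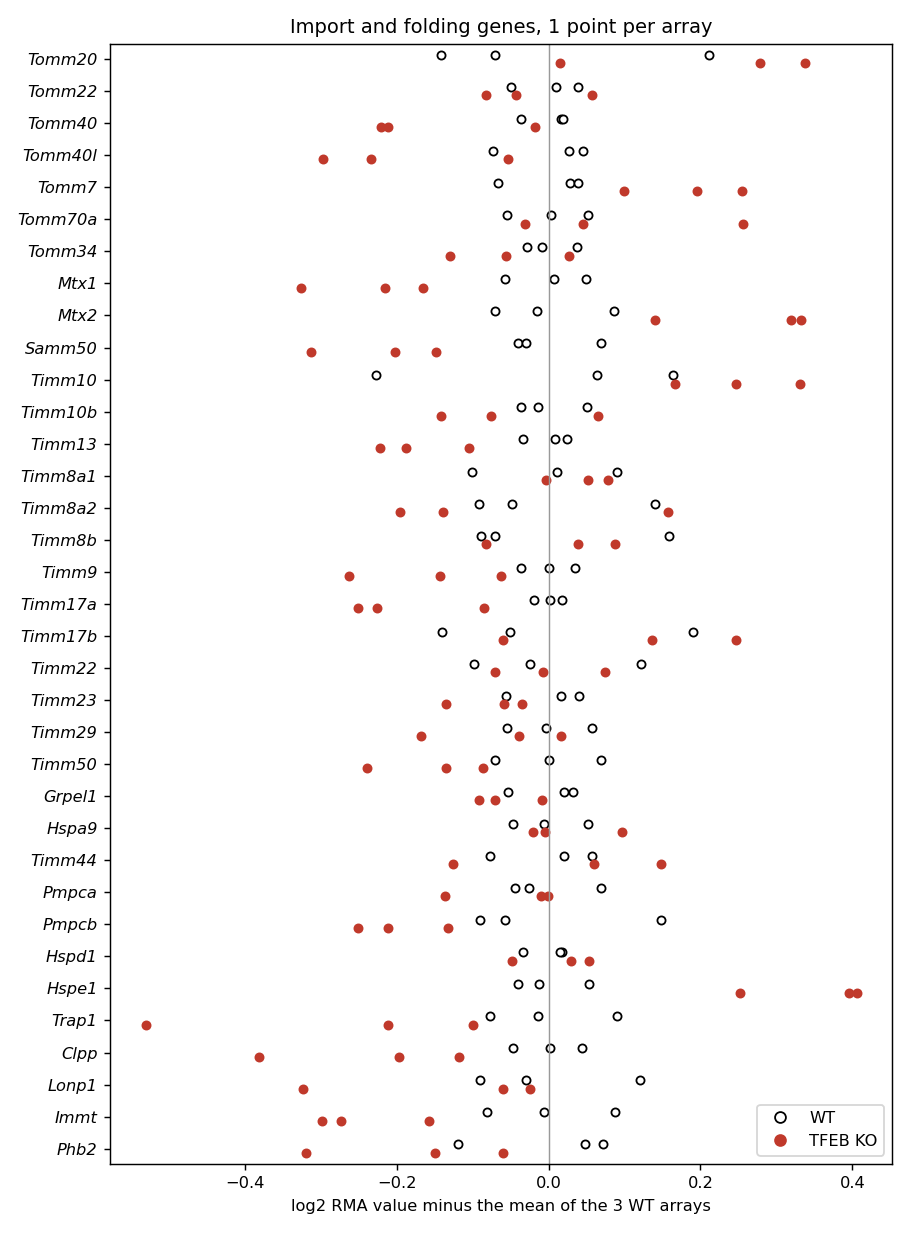
Log2 RMA value of each member minus the mean of the 3 WT arrays (horizontal axis), where open points are WT mice and filled points TFEB KO mice, 1 for each array. The TFEB KO points of Hspe1 and Mtx2 lie right of all WT points and those of Mtx1, Samm50, Immt and Clpp lie left of them.

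The sequences below were chosen because the chaperonin genes Hspd1 and Hspe1, which lie head to head, gave different values. Promoter windows of 300 bases (250 before and 50 after each annotated start, RefSeq, GRCm38.p6) were found for 32 of the 35 members and not for Tomm7, Hspa9 and Tomm40l. The start of Hspe1 on the plus strand lies 216 bases from that of Hspd1 on the minus strand, and a second annotated start of Hspd1 lies 95 bases inside Hspe1. The 120 bases before the start of Hspe1 (chr1:55088028-55088147, plus strand) lie between the head-to-head starts. Capitals mark 4 alternating units of a heat shock element, the binding site of HSF1.
Hspe1: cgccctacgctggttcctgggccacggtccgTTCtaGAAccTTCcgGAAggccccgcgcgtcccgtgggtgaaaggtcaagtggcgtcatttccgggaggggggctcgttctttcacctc
Apart from this stretch, which Hspd1 shares, Timm9 was the only member whose window held 3 such units (chr12:71136857-71136885, minus strand).
Timm9: attaggctTTCtaGAAatTTCgacagatt
The search was for 3 alternating units, GAA and TTC with NN between neighbors, on both strands, which 0.603% of all 32851 windows and 0.493% of the windows of genes on the array hold. In Hspe1 this stretch overlaps a match to CCGGAAG on each strand.

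TFEB binds E-boxes, the palindrome CACGTG, most often within the longer CLEAR site. CACGTG with GT before and AC after it, as in the CLEAR site, was in 0 of the 35 windows of members and in 0.326% of all windows. It was in 0.477% of the windows of genes on the array and in 4 of 71 (5.63%) of those of mitochondrial ribosomal proteins. For a match as rare as it is among genes on the array, 0 of 35 windows says little. The authors searched longer promoter stretches for CLEAR sites. CACGTG was in 6 windows of 6 members, or 17.1%, beside 9.11% of the windows of genes on the array and 7.15% of all windows. The 6 are shown because they are the members whose windows hold the core of the TFEB site, marked in capitals.
Hspd1 (chr1:55088308-55088333, minus strand, second start): ccggctgggaCACGTGaaaaggccgc
Lonp1 (chr17:56626924-56626949, minus strand): cgagcgtcatCACGTGcgcaaacggg
Tomm20 (chr8:126946032-126946057, minus strand): acgccacaaaCACGTGctgcccctga
Timm10 (chr2:84827039-84827064, plus strand): ggaagtgaccCACGTGcttcttattt
Timm9 (chr12:71136718-71136743, minus strand): tacattttccCACGTGgtaacgaatc
Timm8a1 (chrX:134541891-134541916, minus strand): ttcagtggacCACGTGggatgaagca
Timm9 and Timm8a1 each hold a second CACGTG nearer to the start. These 6 genes gave log2 fold changes of 0.01 (Hspd1), -0.14 (Lonp1), 0.21 (Tomm20), 0.25 (Timm10), -0.16 (Timm9) and 0.04 (Timm8a1), and 0 of them passed the test. The letters CACGTG were not in the windows of Mtx1, Mtx2, Samm50, Immt, Clpp or Hspe1. For Hspd1 they were only in the window of its second start, not in that of the head-to-head start. That CACGTG lies downstream of the Hspe1 start, past the end of the Hspe1 window, so it does not set the paired genes apart.

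CCGGAAG, the core bound by ETS factors such as GABP, was in the windows of 19 of the 32 members on either strand, and in 57.1% of their windows. It was in 33.8% of the windows of mitochondrial ribosomal proteins, 14% of those of genes on the array and 8.86% of all. It stands close to the start in both metaxin genes, which are shown because their values lay on opposite sides of 0.
Mtx1 (chr3:89213901-89213927, minus strand): cgagaaggtgCTTCCGGgtcagagagc
Mtx2 (chr2:74825777-74825803, plus strand): ggcggagcagCCGGAAGtgccggcgcg
A match describes these letters only and does not show binding.

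Entry through the outer membrane gave values on both sides of 0, with 3 of 6 TOM genes below 0 and 3 above. Tomm20, the receptor for targeting sequences, read 12.20, 12.27 and 12.56 in WT and 12.62, 12.36 and 12.68 in TFEB KO muscle. WT 3 lay among the TFEB KO arrays, and the log2 fold change of 0.21 ± 0.13 (standard error) had an adjusted p of 0.464 in limma. It ran from 0.14 to 0.32 with each array left out, the lower value without WT 1. Tomm7, a small subunit that shapes the complex, read 10.21, 10.22 and 10.11 in WT and 10.37, 10.43 and 10.28 in TFEB KO muscle. Its arrays did not overlap, at a log2 fold change of 0.18 (adjusted p = 0.352). All 5 probe sets of Tomm20 and all 4 of Tomm7 lay above 0, at 0.04 to 0.27 and at 0.00 to 0.43. Tomm70a, the receptor for carrier precursors, was at 0.09, but at 0.007 without KO 3, its highest array. Its 4 probe sets lay at 0.09 to 0.23 with all arrays. Tomm22, the central receptor, was at -0.02.

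The channel protein Tomm40 read 8.01, 7.95 and 8.01 in WT and 7.78, 7.97 and 7.77 in TFEB KO muscle, with KO 2 among the WT arrays. Its log2 fold change was -0.15 (adjusted p = 0.470). Tomm40l, its paralog, was at -0.19 (adjusted p = 0.368), with WT arrays at 9.74, 9.76 and 9.64 and TFEB KO arrays at 9.66, 9.48 and 9.41, of which KO 1 lay within the WT range. Tomm34, a cochaperone of the cytosol, was at -0.05, with 8.81, 8.86 and 8.80 in WT and 8.77, 8.85 and 8.69 in TFEB KO muscle.

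The SAM complex and its metaxins held values of opposite sign, and the arrays did not overlap for any of the 3 genes. Mtx1, a metaxin on the cytosolic face of the complex, read 9.82, 9.86 and 9.75 in WT and 9.64, 9.59 and 9.48 in TFEB KO muscle. All TFEB KO arrays lay below all WT arrays, at a log2 fold change of -0.24 ± 0.09 (limma, adjusted p = 0.233), and its dimmer probe set gave -0.24 as well (adjusted p = 0.256). Its partner Mtx2 read 9.11, 9.21 and 9.05 in WT and 9.45, 9.26 and 9.44 in TFEB KO muscle. Here all TFEB KO arrays lay above all WT arrays, at a log2 fold change of 0.26 ± 0.10 (adjusted p = 0.216). Samm50, the barrel that inserts other barrels into the membrane, read 11.58, 11.59 and 11.69 in WT and 11.42, 11.31 and 11.47 in TFEB KO muscle. This is a log2 fold change of -0.22 (adjusted p = 0.264), and its nearly as bright second probe set was at -0.31 (adjusted p = 0.124). Samm50 was singled out after its values were seen, as it is the third gene of its group by p.

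The small TIM chaperones, which carry membrane proteins through the intermembrane space, lay at -0.17 to 0.25, with 4 of 7 below 0. Timm10 read 10.45, 10.55 and 10.16 in WT and 10.72, 10.63 and 10.56 in TFEB KO muscle. The TFEB KO arrays lay above WT, though KO 3 exceeded WT 2 by little, and the log2 fold change was 0.25 ± 0.12 (adjusted p = 0.340). It was 0.13 without WT 3, and 0.09 with KO 1 left out as well. Timm13 read 11.10, 11.16 and 11.14 in WT and 10.91, 10.95 and 11.03 in TFEB KO muscle, all lower (-0.17, adjusted p = 0.360). Timm9, the partner of Timm10 in a ring of alternating subunits, was at -0.16 (adjusted p = 0.442) and at -0.10 without KO 2, and Timm8a1, Timm8b and Timm10b were at 0.04, 0.01 and -0.05.

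The inner membrane channels lay close to 0 or below it, with 5 of 6 genes below 0. Timm23, the pore of the main channel, read 12.57, 12.47 and 12.55 in WT and 12.47, 12.49 and 12.39 in TFEB KO muscle. The groups overlapped and the log2 fold change was -0.08 (95% interval -0.27 to 0.12, adjusted p = 0.709), or -0.05 without KO 3. Timm17a, a second pore-forming subunit of that channel, read 11.38, 11.37 and 11.34 in WT and 11.28, 11.11 and 11.14 in TFEB KO muscle. Its TFEB KO arrays were all lower (-0.19, adjusted p = 0.336), while the related Timm17b was at 0.11 (adjusted p = 0.712). With each array left out, Timm17b ran from 0.04 (without WT 1 or KO 3) to 0.20 (without WT 3), and it was 0.19 without KO 1. The dimmer probe set of Timm17b lay below 0, at -0.08 (adjusted p = 0.697). Timm50, the receptor of the channel, read 9.33, 9.47 and 9.40 in WT and 9.16, 9.27 and 9.32 in TFEB KO muscle, also without overlap (-0.15, adjusted p = 0.446). Timm22, the pore for carrier proteins, was at -0.0011 (95% interval -0.22 to 0.22), and its partner Timm29 was at -0.06, with a dimmer probe set at -0.37 (adjusted p = 0.117).

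For the members of the motor that pulls precursors into the matrix, the groups overlapped on the brightest probe sets. Pam16, another subunit of the motor, is given with the wider list below. Hspa9, the mitochondrial HSP70, read 11.73, 11.69 and 11.79 in WT and 11.72, 11.73 and 11.83 in TFEB KO muscle, and the log2 fold change was 0.02 (95% interval -0.18 to 0.22, adjusted p = 0.926). Its dimmer probe sets disagreed, at 0.15, -0.44 and -0.14 (adjusted p = 0.614, 0.178 and 0.638). On the probe set at -0.44, all TFEB KO arrays lay below all WT arrays. Grpel1, which exchanges the nucleotide of HSP70, was at -0.06 (10.16, 10.15 and 10.08 in WT against 10.06, 10.04 and 10.12 in TFEB KO muscle). Timm44, which ties the motor to the channel, was at 0.03 (95% interval -0.21 to 0.26). Of the peptidase that cuts off targeting sequences, the catalytic subunit Pmpcb read 10.56, 10.80 and 10.60 in WT and 10.40, 10.52 and 10.44 in TFEB KO muscle. These groups did not overlap, at a log2 fold change of -0.20 (adjusted p = 0.360), while the dimmer probe set gave -0.03. Without WT 2, the highest array, the brightest gave -0.12. Pmpca, the other subunit, was at -0.05, with WT arrays at 10.59, 10.61 and 10.70 and TFEB KO arrays at 10.50, 10.62 and 10.63, while its dimmer probe set lay at -0.31 (adjusted p = 0.114).

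Among the folding chaperones of the matrix, Hspe1 and Hspd1 gave different values although their proteins work as a pair. Hspe1, the HSP10 lid of the chaperonin, read 10.81, 10.83 and 10.90 in WT and 11.24, 11.10 and 11.25 in TFEB KO muscle. Every TFEB KO array exceeded every WT array, and the log2 fold change of 0.35 (95% interval 0.14 to 0.56) or 1.28-fold was the largest of the 35. Its adjusted p of 0.0996 from limma was the smallest of the members and missed the threshold. The dimmer probe set of Hspe1 lay at 0.19 (adjusted p = 0.297), also without overlap. Hspd1, the HSP60 barrel that the shared promoter stretch above faces on the other side, read 11.66, 11.71 and 11.70 in WT and 11.72, 11.74 and 11.64 in TFEB KO muscle. Its groups overlapped, at a log2 fold change of 0.01 (95% interval -0.18 to 0.21, adjusted p = 0.965), on its only probe set. The difference between these changes was not tested, because the pair was singled out for it.

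Trap1, the HSP90 of mitochondria, lay on the other side of 0. It read 10.69, 10.59 and 10.53 in WT and 10.07, 10.50 and 10.39 in TFEB KO muscle, a log2 fold change of -0.28 ± 0.13 (adjusted p = 0.301). KO 1 was the lowest array, and without it the value was -0.16. Its dimmer probe set was at 0.05. Clpp, a matrix protease, read 9.88, 9.79 and 9.84 in WT and 9.46, 9.72 and 9.64 in TFEB KO muscle, at -0.23 (adjusted p = 0.281), with KO 1 lowest again and the dimmer probe set at 0.05. Lonp1, the other protease, read 9.42, 9.63 and 9.48 in WT and 9.19, 9.45 and 9.48 in TFEB KO muscle. These groups overlapped, and the log2 fold change of -0.14 (adjusted p = 0.596) was -0.04 without KO 1 and -0.08 without WT 2.

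Immt, the MIC60 protein that holds cristae junctions together and binds the import machinery, lay lower on each of its probe sets. The brightest read 10.82, 10.92 and 10.75 in WT and 10.56, 10.67 and 10.53 in TFEB KO muscle, without overlap, at a log2 fold change of -0.24 ± 0.09 (limma, adjusted p = 0.233). Its other probe sets were at -0.20 (adjusted p = 0.273) and -0.49 (adjusted p = 0.0922), the latter the lowest value among the 70 probe sets of the members. Of those 70, 0 passed the test, while 1.6% of all probe sets passed it. Phb2, a subunit of the prohibitin ring of the inner membrane, read 11.17, 11.14 and 10.97 in WT and 10.77, 11.03 and 10.94 in TFEB KO muscle. WT 3 lay among the TFEB KO arrays, and its 3 probe sets gave -0.18, -0.17 and -0.16 (adjusted p = 0.438 to 0.550). The first was -0.10 without KO 1.

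Over the 21 members with several probe sets, 25 of the 35 dimmer ones lay on the same side of 0 as the brightest. All probe sets lay below 0 in 9 genes (Mtx1, Samm50, Immt, Phb2, Pmpca, Pmpcb, Timm9, Timm22 and Timm29) and above 0 in 5 (Hspe1, Tomm7, Tomm20, Tomm70a and Timm8a1). In the others, among them Hspa9, Trap1, Clpp and Timm17b, the probe sets lay on both sides.

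**Figure D3:**
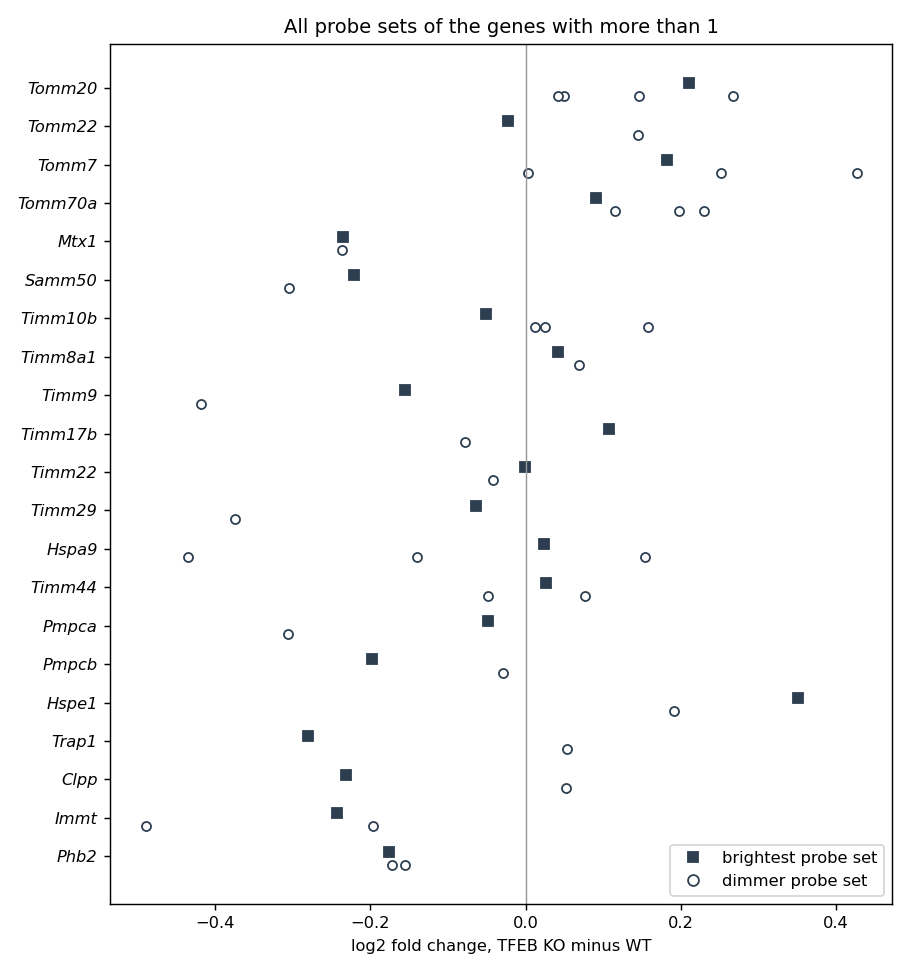
Log2 fold change (horizontal axis, TFEB KO minus WT) of every probe set of the 21 members with more than 1, with the brightest as a square and dimmer ones as open circles. All 3 probe sets of Immt lie left of 0, both of Hspe1 lie right of it, and those of Hspa9 run from -0.44 to 0.15.

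A wider list of 29 measured genes of import, assembly, proteolysis and cristae structure was read in the same fit. Again 0 passed the test in either direction, while 9 were lower and 1 was higher at an unadjusted p under 0.05 (31% and 3.45%, beside 8.66% and 8.49% of all genes). The median was -0.11, and 19 of 29 lay below 0. Parl, a rhomboid protease of the inner membrane, was at -0.40 (limma, adjusted p = 0.0673), Dnajc11, a partner of the SAM complex and MIC60, at -0.38 (adjusted p = 0.0846), and Ppif, the matrix cyclophilin D, at -0.55 (adjusted p = 0.0954). Afg3l2, a subunit of the m-AAA protease, was at -0.33 (adjusted p = 0.147), Bcs1l, an assembly factor of complex III, at -0.29 (adjusted p = 0.158), and Dnaja3, a cochaperone of mitochondrial HSP70, at -0.26 (adjusted p = 0.198). For these 6, all TFEB KO arrays lay below all WT arrays, which their choice by the smallest p makes likely. Over the whole list, 13 of 29 lay lower and 2 higher without overlap. These are 44.8% and 6.9%, beside 12.9% and 10.8% of all genes. Pam16, a J-like subunit of the motor, was the gene higher at an unadjusted p under 0.05, at 0.29 (adjusted p = 0.238). The other gene that lay higher without overlap was Yme1l1, at 0.19 (adjusted p = 0.429). Parl passed after a second quantile normalization and with trended and robust moderation, and Ppif with the mean of all its probe sets.

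The members' median of -0.06 was set beside those of other mitochondrial genes. It was -0.04 for 74 mitochondrial ribosomal proteins and -0.04 for 33 subunits of complex I, of which 0 each passed the test. Of 17 enzymes of the tricarboxylic acid cycle 0 passed as well, but their median was -0.24 and 15 lay below 0. The cytosolic heat shock genes gave the opposite picture: 5 of 15 rose, beside 0.871% of all genes, with a median of 0.39. The 5 are Hspa1a, Hspa1b, Hsp90aa1, Hsph1 and Dnaja1, the last at 0.80. Of 4 measured regulators linked to the mitochondrial unfolded protein response 0 passed, with Atf4 at 0.29 (adjusted p = 0.192 from limma), Atf5 at 0.18 (adjusted p = 0.489), Cebpb at 0.67 (adjusted p = 0.287) and Ddit3 at -0.40 (adjusted p = 0.121). The differences between these lists were not tested.

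**Figure D4:**
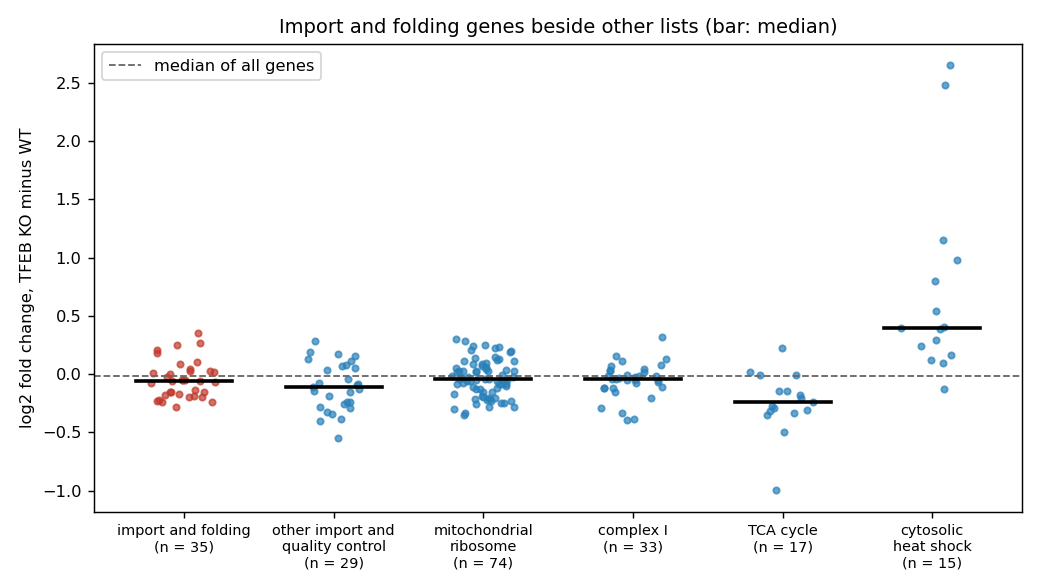
Log2 fold change (vertical axis, TFEB KO minus WT) of each gene of 6 lists, with 1 point per gene, black bars at the median of a list and a dashed line at the median of all genes. The import and folding genes lie between -0.28 and 0.35, while the cytosolic heat shock genes reach 2.65.

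The arrays read whole muscle, in which fewer cells of a type and less RNA per cell cannot be told apart. The summed linear signal of 10 muscle fiber genes, most of them of fast fibers, was 256385 to 259109 in WT arrays. It was 256902 to 262979 in TFEB KO arrays, and 0 of the 10 passed the test. Their log2 values ran from 14.19 to 14.93, the brightest value measured, so a difference in fiber content could be hidden in this sum. Of 16 macrophage markers 6 rose, beside 0.871% of all genes, and 16 lay above 0. Their sums were 2432 to 4275 in WT and 6651 to 10612 in TFEB KO arrays. Of 12 endothelial markers 7 fell, beside 0.702% of all genes, and 12 lay below 0. Their sums were 3135 to 3586 in WT and 2092 to 2385 in TFEB KO arrays. Of 10 genes of slow fibers 0 passed and 9 lay below 0, with a median of -0.58. At an unadjusted p under 0.05, 5 of them were lower, beside 8.66% of all genes. Their sum in WT 3 (27593) lay near the TFEB KO arrays (22557 to 31785) and below WT 1 and WT 2 (53184 and 57429). The sum of 3 adipocyte markers was 5085 in KO 1 and 869 to 1756 in the other arrays. The part of these cells in the values of the members was not tested. With WT 3 and KO 1 both left out, 0 members passed and their median was -0.07.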

How the data were processed

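Total RNA of muscle was measured on 1 Affymetrix array for each of 3 WT and 3 TFEB KO mice. The deposited values are log2 RMA values, which the authors made with affy according to the submitters' processing notes, and no version is stated in the sources used here. Because RMA equalizes arrays, a shift of most genes at once would hardly be seen. The table holds 22690 probe sets. After 64 control probe sets were dropped, limma 3.58.1 under R 4.3.3 tested the other 22626 (two-sided), and p-values were adjusted over all of them by Benjamini-Hochberg at a threshold of 0.05. One gene symbol was given for 20380 probe sets, several for 691 and none for 1555, and 20351 of the former were found by Entrez ID in RefSeq, which changed 0 symbols. Groups and replicate numbers come from the labels. With 3 arrays a group, limma's p-values, standard errors and intervals rest on the spread between mice, moderated toward a spread estimated over all probe sets. For a gene with a small spread they are wider than its own arrays give. Timm13, for example, had an unadjusted p of 0.079 in limma and 0.0118 in Student's t-test.

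The members and lists were chosen with earlier results of these data known. Array values are given for the 2 members with the smallest p in each role and for Hspd1, Hspe1, Hspa9, Lonp1, Clpp, Timm23, Tomm20, Tomm40, Immt and Phb2. Of the wider list, the 6 genes with the smallest p are named, and of other lists the called genes, at most 4. Pam16, Yme1l1, Dnaja1, Samm50's array values and the regulators were named after their values were seen. Marker lists of fibroblasts (6 genes measured, 0 called) and Schwann cells (3 measured, 1 lower) were also read. Alternatives were another normalization, a filter on dim probe sets, array weights, other moderation and a replicate block. Further ones were Student's t-test, the mean of all probe sets and each array left out. The sources used here name no test for the arrays, so Student's t-test need not be the authors' array procedure. Leaving out WT 3 and KO 1 together was added after the data were seen. The fit was tested on simulated data. Motifs were searched with Python 3.11.15, and figures drawn with matplotlib 3.10.9.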

Additional observations from a re-analysis of the deposited data

How the results depend on the processing

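The members called numbered 0 under every setting run except Student's t-test without adjustment, which gave 6 as lower and 3 as higher. Their median log2 fold change ran from -0.093 to -0.035 with each array left out, the former without KO 2, and from -0.083 (second quantile normalization) to -0.0548 (dim probe sets left out, which drops Timm8a2) otherwise. The wider list had 1 gene lower after a second quantile normalization and with trended and robust moderation. The same count came with the mean of all probe sets and with the replicate block. It was 9 with Student's t-test without adjustment and 0 with each array left out. Over all probe sets, 191 were lower and 170 higher. Lower calls numbered 296 with array weights and 124 with the replicate block. Student's t-test gave 1 lower and 0 higher after adjustment (Tfeb adjusted p = 0.132, at -1.58) and 1944 and 1338 without. With each array left out, lower calls ran from 4 (without WT 1) to 203 (without KO 1) and higher calls from 17 (without WT 1) to 235 (without KO 1). Both were also under 60 without WT 2, WT 3, KO 2 or KO 3, at 25 and 35, 42 and 38, 14 and 30, and 40 and 53. Each array is a separate mouse, and the labels do not say that same-numbered mice belong together. The deviations of same-numbered arrays correlated at 0.09, 0.05 and 0.27. WT 2 and WT 3 matched best with the TFEB KO array of their own number, and WT 1 did not. These values cannot tell whether same-numbered mice shared a batch, so calls made with the block are given only here.

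Signs turned only for members near 0. A second quantile normalization gave Hspd1 -0.0055, Timm44 -0.0002 and Timm8b -0.0094. The mean of all probe sets gave Hspa9 -0.0991, Timm10b 0.0359 and Tomm22 0.0615. With WT 3 and KO 1 both left out, Pmpca was 0.0296, Timm8a1 -0.0129 and Timm8b -0.0422. With each array left out, Hspd1 ran from -0.0091 to 0.0413, Timm44 from -0.0336 to 0.1033, Timm8b from -0.0301 to 0.094, Hspa9 from -0.0127 to 0.0499, Tomm22 from -0.0621 to 0.0077, Timm22 from -0.0501 to 0.0598, Timm8a2 from -0.1673 to 0.0108 and Timm8a1 from -0.0083 to 0.087. The cause was not tested. With 3 arrays a group, the unadjusted 95% intervals of the members on their brightest probe sets reached 0.19 to 0.30 to either side.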
